A study of Caenorhabditis elegans with 6 samples.

Results

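Glutathione *S*-transferase (GST) genes were followed in late L4 larvae of 2 *ets-4* mutant strains of *Caenorhabditis elegans*. The members are all genes whose symbol begins with *gst-*, *gsto-* or *gstk-* and whose probe was well above background in the mutant or the wild-type channel on at least 3 of the 6 arrays. The arrays carry probes for 49 such genes, and 44 of them were kept, among 14767 genes kept in all. None of the 44 lay near the limit, since each was well above background on all 6 arrays. Of the 5 genes left out, *gst-31* was detected on 1 array and *gst-17*, *gst-18*, *gst-25* and *gst-37* on 0.

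GSTs join the tripeptide glutathione to electrophilic compounds, such as products of lipid peroxidation, plant and bacterial toxins and drugs, so that these can be exported from the cell. The worm family holds many cytosolic enzymes encoded by *gst* genes, the omega class (*gsto*), whose members carry a catalytic cysteine, and the kappa class (*gstk*), which sits in mitochondria and peroxisomes. In the worm intestine and hypodermis many of these genes are induced by SKN-1, the Nrf-type transcription factor of the oxidative stress response, and *gst-4* is its standard reporter gene.

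Each array compared cDNA from whole mutant larvae, labeled with Cy5, with cDNA from whole N2 wild-type larvae, labeled with Cy3. On 3 arrays the mutant was *ets-4(uz1)*, an allele without most of the DNA-binding ETS domain and the 3′ untranslated region that keeps the PNT domain, gives a shortened mRNA and may give a truncated protein, and on the other 3 it was *ets-4(ok165)*, an allele missing the sequence for both domains and proposed to be null. All 3 genotypes were fed OP50 bacteria after hypochlorite synchronization, and no further allele or agent is given for any group. ETS-4 is a transcription factor whose gene is expressed in the intestine, pharynx, seam cells, hypodermis and some neurons, among other cells. The arrays asked which genes depend on it. Dyes were not swapped, so any bias of a gene toward 1 dye enters both ratios against wild type, and the mutant strains can be set against each other without it. The *ets-4* probe itself was lower on every array, with log2 ratios of −3.18, −3.08 and −2.84 in *ets-4(uz1)* worms and of −3.59, −2.80 and −2.72 in *ets-4(ok165)* worms.

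Between 68.5% and 72.9% of the non-control spots per array had wild-type signal well above background, and between 72.8% and 85.4% had such mutant signal. Precision is limited by there being 3 arrays per strain. The wild-type signals of same-numbered arrays went together. After each gene's log2 wild-type signal was centered over the 6 arrays, the wild-type signals of the *ets-4(uz1)* and *ets-4(ok165)* arrays correlated at 0.54, 0.75 and 0.86 for arrays 1, 2 and 3, while all other pairs lay between −0.78 and 0.08. The mutant signals of same-numbered arrays correlated at −0.05, −0.07 and 0.21. All other mutant pairs between the strains lay lower, between −0.64 and −0.28, and pairs within a strain lay between −0.32 and 0.19. These are descriptions over 14767 genes, which are not independent replicates, and the labels do not say whether the strains were set against the same N2 sample. Slide 1 held the first arrays of both strains, and the later arrays of each strain had a slide of their own.

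No GST gene passed the test in either mutant strain. With limma fitted to all genes and all 6 arrays, 0 of 44 members reached an adjusted p under 0.05 in *ets-4(uz1)* worms against wild type, where 3.53% of all genes did, and 0 of 44 in *ets-4(ok165)* worms, where 0.0948% of all genes did. The Rank Products test of the study's methods also called 0 members in each strain. The lowest adjusted p among the members was 0.131 in *ets-4(uz1)* worms and 0.445 in *ets-4(ok165)* worms. At an unadjusted p under 0.05 there were 9 members in *ets-4(uz1)* worms, or 20.5% against 19.6% of all genes, and 5 in *ets-4(ok165)* worms, or 11.4% against 8.15%. Of the 9, *gst-3* was higher and 8 were lower (18.2% against 9.67% of all genes), and all 5 in *ets-4(ok165)* worms were higher (4.53% of all genes). Among these 5 were *gst-41* and *gst-44*, which met the signal limit through the mutant channel only.

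Mean ratios were modest. In *ets-4(uz1)* worms the members' mean log2 ratios ran from −1.03 to 0.62 with a median of −0.06, against a median of 0.03 over all genes, and in *ets-4(ok165)* worms they ran from −0.87 to 0.98 with a median of 0.16, against −0.02 over all genes. Only *gst-9* in *ets-4(uz1)* worms had a mean beyond 2-fold. Both medians depended on single arrays. Without array 2 of *ets-4(uz1)* the first was 0.06, and without array 1 of *ets-4(ok165)* the second was 0.0037. The SD over the 3 arrays was larger than the mean itself for 27 of the 44 members in *ets-4(uz1)* worms and for 34 in *ets-4(ok165)* worms. The share over all genes was not counted, so these counts do not set the family apart. The median SD of the members on the log2 scale was 0.43 in *ets-4(uz1)* worms, against 0.36 over all genes, and 0.45 in *ets-4(ok165)* worms, against 0.35 over all genes.

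**Figure D1:**
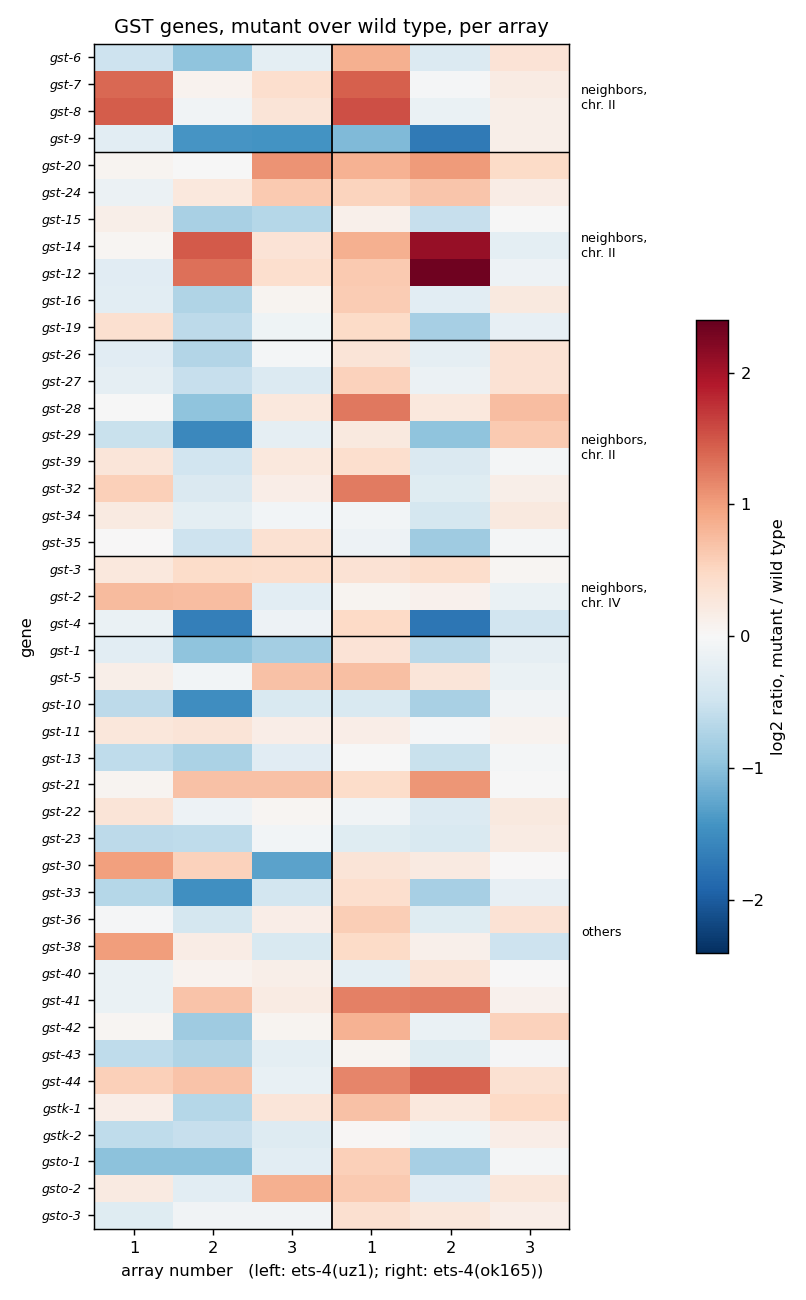
Log2 ratio of mutant over wild type for the 44 GST genes (rows) on each array (columns, arrays 1 to 3 of *ets-4(uz1)* at the left and of *ets-4(ok165)* at the right), with chromosomal neighbors grouped; red is higher and blue lower in the mutant. *gst-12* and *gst-14* were high on arrays 2 of both strains and *gst-7* and *gst-8* on arrays 1, while array 1 has 22 of 44 members above 0 in *ets-4(uz1)* worms, against 36 in *ets-4(ok165)* worms.

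When the array number was entered as a block, which takes variation shared by the same-numbered arrays of both strains out of the error, 9 of the 44 members (20.5%) passed in *ets-4(uz1)* worms, where 15.5% of all genes passed. Lower were *gst-1*, *gst-10*, *gst-13*, *gst-29*, *gst-33*, *gst-43* and *gstk-2* (7 members, 15.9% against 8.32% of all genes), and higher were *gst-7* and *gst-8* (4.55% against 7.2%). With that block 0 members passed in *ets-4(ok165)* worms, where 0.332% of all genes did, and the lowest adjusted p was 0.0531, for *gst-44*. None of the 9 calls was made without the block. For a mean against wild type, the variation that the block removes is part of the spread between the replicate arrays, so the blocked calls do not take that spread into account. For *gst-8*, for example, the standard error was 0.11 with the block and 0.39 without it. The block suits the difference between the strains, and the blocked p-values against wild type are given as an alternative only.

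Among the enzymes that act on lipid peroxidation products, *gst-10*, whose product conjugates 4-hydroxynonenal, had log2 ratios of −0.62, −1.48 and −0.37 in *ets-4(uz1)* worms and of −0.36, −0.77 and −0.08 in *ets-4(ok165)* worms. Every array lay below 0 in both strains, and array 2 was the lowest in each. The means were −0.82 ± 0.59 in *ets-4(uz1)* worms (SD, n = 3 arrays, adjusted p = 0.131 from limma, 0.0208 with the block) and −0.40 ± 0.35 in *ets-4(ok165)* worms (adjusted p = 0.715 from limma). *gst-5*, another 4-hydroxynonenal-conjugating enzyme, stood at 0.15, −0.06 and 0.70 in *ets-4(uz1)* worms and at 0.72, 0.28 and −0.17 in *ets-4(ok165)* worms. Its strains overlapped over most of their range, with means of 0.26 ± 0.39 in *ets-4(uz1)* worms and 0.28 ± 0.44 in *ets-4(ok165)* worms. *gst-24*, which has also been tied to the conjugation of 4-hydroxynonenal, had ratios of −0.15, 0.26 and 0.62 in *ets-4(uz1)* worms and of 0.53, 0.67 and 0.19 in *ets-4(ok165)* worms. It was above wild type on all 3 *ets-4(ok165)* arrays, at a mean of 0.46 ± 0.25 (adjusted p = 0.610 from limma).

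The SKN-1 reporter gene *gst-4* followed the array number rather than the strain. Its log2 ratios were −0.17, −1.64 and −0.12 in *ets-4(uz1)* worms and 0.47, −1.73 and −0.45 in *ets-4(ok165)* worms. Only array 2 was far below wild type, and it was so in both strains. The processed signals of *gst-4* on the 3 *ets-4(uz1)* arrays were 9104, 5285 and 2006 in the mutant, against 10218, 16471 and 2175 in wild type, and on the 3 *ets-4(ok165)* arrays 13371, 3985 and 1596 in the mutant, against 9628, 13251 and 2181 in wild type, in units that were not scaled between arrays. The means were −0.64 ± 0.87 in *ets-4(uz1)* worms (adjusted p = 0.470 from limma) and −0.57 ± 1.11 in *ets-4(ok165)* worms (adjusted p = 0.767). Without array 2 of *ets-4(ok165)*, the mean of that strain was 0.01.

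*gst-7* and *gst-8*, adjacent genes of the same family, were high on array 1 alone. *gst-7* had log2 ratios of 1.37, 0.09 and 0.40 in *ets-4(uz1)* worms and of 1.44, −0.02 and 0.21 in *ets-4(ok165)* worms. *gst-8* had ratios of 1.45, −0.09 and 0.31 in *ets-4(uz1)* worms and of 1.54, −0.15 and 0.14 in *ets-4(ok165)* worms. The 2 genes gave nearly the same values on each array, and arrays 2 and 3 of both strains lay between −0.15 and 0.40. In *ets-4(uz1)* worms the means were 0.62 ± 0.67 for *gst-7* (adjusted p = 0.368 from limma, 0.0274 with the block) and 0.56 ± 0.80 for *gst-8* (adjusted p = 0.471 from limma, 0.0341 with the block). On array 1 alone, both genes were more than 2-fold above wild type.

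The next gene of that run, *gst-9*, was the member whose mean lay farthest from wild type in *ets-4(uz1)* worms. Its log2 ratios were −0.25, −1.41 and −1.44 in *ets-4(uz1)* worms and −1.06, −1.71 and 0.14 in *ets-4(ok165)* worms. It was below wild type on 5 of the 6 arrays, and array 3 differed between the strains. The mean in *ets-4(uz1)* worms was −1.03 ± 0.68, or 2.05-fold lower (adjusted p = 0.197 from limma), and in *ets-4(ok165)* worms −0.87 ± 0.94 (adjusted p = 0.615).

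*gst-12* and *gst-14*, predicted enzymes encoded by adjacent genes on chromosome II, behaved as a pair in the other direction. *gst-12* had log2 ratios of −0.27, 1.32 and 0.40 in *ets-4(uz1)* worms and of 0.63, 2.33 and −0.12 in *ets-4(ok165)* worms. *gst-14* had ratios of 0.05, 1.48 and 0.33 in *ets-4(uz1)* worms and of 0.86, 2.10 and −0.23 in *ets-4(ok165)* worms. Array 2 was the highest for both genes in both strains. For *gst-12* the wild-type signal was also lowest on array 2, at 174 for *ets-4(uz1)* and 133 for *ets-4(ok165)*, against 264 to 295 on the other 4 arrays. The mutant signal was highest on array 2, at 434 against 245 and 385 in *ets-4(uz1)* worms and at 671 against 408 and 267 in *ets-4(ok165)* worms. These signals were not scaled between arrays. The *ets-4(ok165)* mean of 0.95 ± 1.26 for *gst-12* had an adjusted p of 0.652 from limma, and that of 0.91 ± 1.16 for *gst-14* an adjusted p of 0.645.

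**Figure D2:**
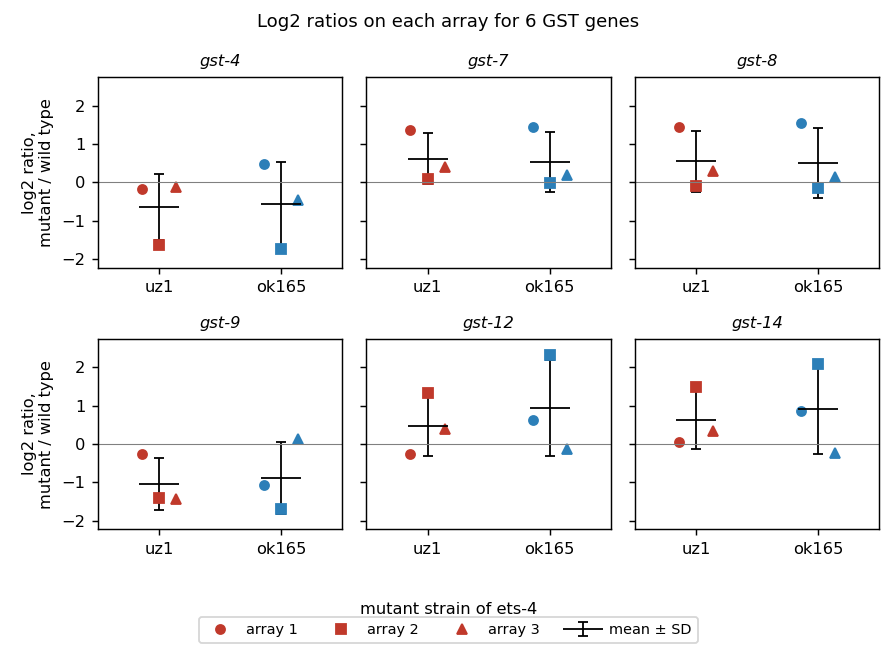
Log2 ratio of mutant over wild type for 6 GST genes, with *ets-4(uz1)* at the left and *ets-4(ok165)* at the right of each panel; symbols are arrays 1 to 3, and bars are the mean and the SD over 3 arrays. The square of array 2 is the lowest point for *gst-4* and the highest for *gst-12* and *gst-14* in both strains, and the circle of array 1 is the highest for *gst-7* and *gst-8*.

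Probe sequences were not used here. Whether the probes of *gst-7* and *gst-8*, or of *gst-12* and *gst-14*, bind each other's transcripts was not tested.

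The members that lay below wild type on every *ets-4(uz1)* array were 15 of 44, or 34.1%, against 19.2% of all genes, and 5 (11.4%) lay above it on every array, against 20.6% of all genes. In *ets-4(ok165)* worms 3 members (6.82%) were below wild type on every array, against 15.1% of all genes, and 9 (20.5%) were above it, against 14.8%. Among these 9 were *gst-30*, *gst-41* and *gst-44*, which met the signal limit through the mutant channel only. Their wild-type signal was well above background on 1, 1 and 0 *ets-4(ok165)* arrays, so their direction carries little weight. *gst-33*, a predicted enzyme encoded on chromosome V, had log2 ratios of −0.68, −1.48 and −0.44 in *ets-4(uz1)* worms and of 0.41, −0.79 and −0.19 in *ets-4(ok165)* worms. Each *ets-4(uz1)* array was lower than the *ets-4(ok165)* array of the same number. The *ets-4(uz1)* mean was −0.86 ± 0.54 (adjusted p = 0.157 from limma, 0.0270 with the block).

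*gst-29*, a member of a run of 9 neighbors on chromosome II, had log2 ratios of −0.54, −1.55 and −0.21 in *ets-4(uz1)* worms and of 0.24, −0.96 and 0.63 in *ets-4(ok165)* worms. Array 2 was again the lowest in both strains. Its *ets-4(uz1)* mean was −0.77 ± 0.70 (adjusted p = 0.292 from limma, 0.0186 with the block). *gst-1*, a pi-class-like enzyme studied for its part in the survival of dopaminergic neurons, had ratios of −0.26, −0.97 and −0.81 in *ets-4(uz1)* worms and of 0.33, −0.65 and −0.22 in *ets-4(ok165)* worms. The *ets-4(uz1)* mean was −0.68 ± 0.37 (adjusted p = 0.173 from limma, 0.0245 with the block), and the *ets-4(ok165)* mean was −0.18 ± 0.49.

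*gst-13*, a predicted enzyme, had log2 ratios of −0.61, −0.76 and −0.27 in *ets-4(uz1)* worms and of −0.0046, −0.53 and −0.04 in *ets-4(ok165)* worms. Its *ets-4(uz1)* mean of −0.55 ± 0.25 had an adjusted p of 0.160 from limma and of 0.0419 with the block. *gst-43*, also a predicted enzyme, had ratios of −0.62, −0.72 and −0.24 in *ets-4(uz1)* worms and of 0.06, −0.28 and −0.02 in *ets-4(ok165)* worms. Both lay below wild type on every *ets-4(uz1)* array, by 1.46-fold for *gst-13* and 1.44-fold for *gst-43* on average. The *ets-4(uz1)* mean of *gst-43* was −0.52 ± 0.25 (adjusted p = 0.143 from limma, 0.0459 with the block).

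The kappa-class gene *gstk-2*, whose product is mitochondrial, had the smallest SD of the 7 members lower with the block. Its log2 ratios were −0.61, −0.55 and −0.32 in *ets-4(uz1)* worms and 0.03, −0.10 and 0.16 in *ets-4(ok165)* worms, and the arrays of the strains did not overlap. The means were −0.49 ± 0.16 in *ets-4(uz1)* worms (adjusted p = 0.131 from limma, 0.0410 with the block) and 0.03 ± 0.13 in *ets-4(ok165)* worms (adjusted p = 0.972). The other kappa-class gene, the peroxisomal *gstk-1*, had ratios of 0.16, −0.68 and 0.29 in *ets-4(uz1)* worms and of 0.70, 0.26 and 0.48 in *ets-4(ok165)* worms. It was above wild type on all 3 *ets-4(ok165)* arrays, at a mean of 0.48 ± 0.22 (adjusted p = 0.630 from limma).

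Of the omega class, *gsto-1*, an intestinal gene controlled by the GATA factor ELT-2, had log2 ratios of −0.99, −0.99 and −0.25 in *ets-4(uz1)* worms and of 0.58, −0.80 and −0.05 in *ets-4(ok165)* worms. Array 1 separated the strains by −1.57, the widest gap of any member on that array number. The *ets-4(uz1)* mean was −0.74 ± 0.42 (adjusted p = 0.209 from limma, 0.0893 with the block). *gsto-2* had means of 0.27 ± 0.55 in *ets-4(uz1)* worms and 0.21 ± 0.45 in *ets-4(ok165)* worms. *gsto-3* lay at −0.30, −0.09 and −0.08 in *ets-4(uz1)* worms and at 0.38, 0.27 and 0.15 in *ets-4(ok165)* worms. It is the only member with several probes, and its dimmer probe gave means of 0.26 in *ets-4(uz1)* worms and 0.87 in *ets-4(ok165)* worms, its wild-type signal being detected above background on 1 of 6 arrays.

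The zeta-class gene *gst-42* encodes the worm maleylacetoacetate isomerase of tyrosine breakdown. Its log2 ratios were 0.04, −0.85 and 0.06 in *ets-4(uz1)* worms and 0.84, −0.16 and 0.56 in *ets-4(ok165)* worms. The means were −0.25 ± 0.52 in *ets-4(uz1)* worms (adjusted p = 0.634 from limma) and 0.41 ± 0.52 in *ets-4(ok165)* worms (adjusted p = 0.721).

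**Figure D3:**
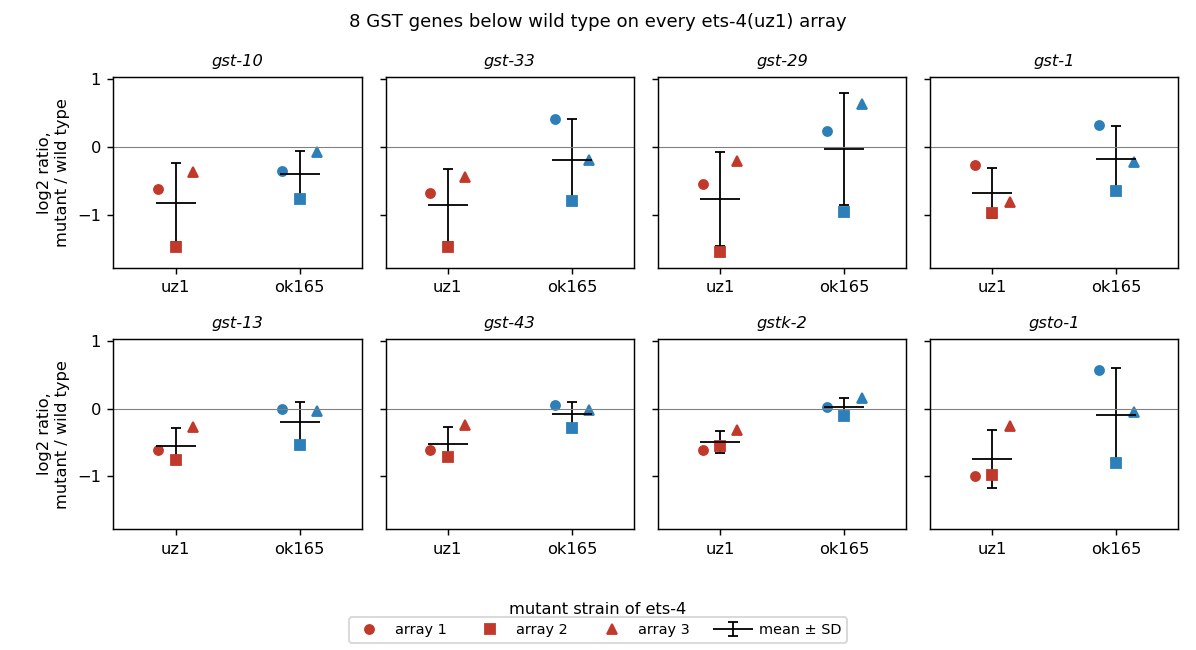
Log2 ratio of mutant over wild type for 8 of the 15 GST genes that lay below wild type on every *ets-4(uz1)* array, with *ets-4(uz1)* at the left and *ets-4(ok165)* at the right of each panel; symbols are arrays 1 to 3, and bars are the mean and the SD over 3 arrays. All red points lie below 0, and for *gstk-2* the *ets-4(uz1)* and *ets-4(ok165)* points do not overlap.

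Beside *gst-12* and *gst-14*, the highest means in *ets-4(ok165)* worms belonged to 2 dim members, *gst-44* and *gst-41*, and 2 bright ones, *gst-20* and *gst-28*. *gst-44* had log2 ratios of 0.57, 0.68 and −0.18 in *ets-4(uz1)* worms and of 1.17, 1.39 and 0.37 in *ets-4(ok165)* worms. Its wild-type signal was not well above background on any *ets-4(ok165)* array, so its ratio there is not a measured fold. In that strain the mean normalized mutant signal was 1.53-fold above the background limit of the wild-type channel. The gene did not pass the test (adjusted p = 0.445 from limma, 0.0531 with the block). That limit is open to dye bias, and *gst-44* met the signal limit through the mutant channel only, so the value is no firm lower bound. *gst-41* had ratios of −0.17, 0.68 and 0.20 in *ets-4(uz1)* worms and of 1.20, 1.23 and 0.10 in *ets-4(ok165)* worms, and wild-type signal was detected above background on 1 array per strain.

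Of the bright members, *gst-20* had log2 ratios of 0.07, −0.0031 and 1.07 in *ets-4(uz1)* worms and of 0.84, 1.02 and 0.45 in *ets-4(ok165)* worms, and its *ets-4(ok165)* mean was 0.77 ± 0.29 (adjusted p = 0.550 from limma). *gst-28* had ratios of −0.01, −0.96 and 0.25 in *ets-4(uz1)* worms and of 1.26, 0.26 and 0.73 in *ets-4(ok165)* worms. All *ets-4(ok165)* arrays of both genes were above wild type. The *ets-4(ok165)* mean of *gst-28* was 0.75 ± 0.50 (adjusted p = 0.585 from limma).

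The difference between the mutant strains, in which dye effects cancel, was negative for most of the family. Of the 44 members, 31 (70.5%) had a lower mean in *ets-4(uz1)* than in *ets-4(ok165)* worms, against 45.9% of all genes. The median difference of log2 ratios, *ets-4(uz1)* minus *ets-4(ok165)*, was −0.29 over the members and 0.04 over all genes. It was −0.59, −0.29 and −0.19 within arrays 1, 2 and 3, which compare the strains on 1 slide (arrays 1) or, on separate slides, on 1 scan day (arrays 2 and 3), against 0.03, 0.02 and 0.02 over all genes. After normexp background correction and loess normalization in place of the deposited ratios it was −0.17, and with the slide as a fixed block, where only the first arrays compare the strains, −0.59. These shares and medians are descriptions of a family, without a test of the family as a whole.

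**Figure D4:**
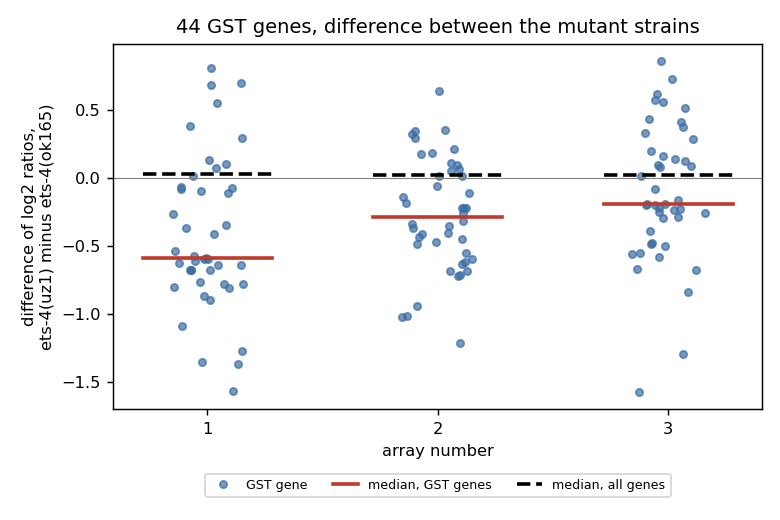
Difference of log2 ratios, *ets-4(uz1)* minus *ets-4(ok165)*, for the 44 GST genes (points) within each array number, with the median of the members (solid line) and of all genes (dashed line). The members' medians are −0.59, −0.29 and −0.19, and 34, 30 and 25 of the 44 points lie below 0.

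No single member passed this comparison. With limma 0 of 44 reached an adjusted p under 0.05, where 0.163% of all genes did, and the fit with that block again called 0, where 0.623% of all genes passed. The lowest adjusted p of a member was 0.699 without the block and 0.137 with it. At an unadjusted p under 0.05 there were 4 members, *gst-6*, *gst-27*, *gst-28* and *gstk-2*, all lower in *ets-4(uz1)* worms (9.09% against 3.02% of all genes), and with the block 13, all lower (29.5% against 9.2%). In all 3 array numbers 19 members (43.2%) were lower in *ets-4(uz1)* worms, against 20.8% of all genes, and *gst-11*, *gst-35* and *gst-38* (6.82%) were higher, against 23.8%. The arrays of the strains did not overlap for 4 members, *gst-27*, *gst-28*, *gstk-2* and *gsto-3*, all lower in *ets-4(uz1)* worms (9.09% against 4.5% of all genes). For *gsto-3* this held only for the brighter of its probes. For *gst-28* the gap was very narrow, between 0.248 on array 3 of *ets-4(uz1)* and 0.255 on array 2 of *ets-4(ok165)*.

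Some of the wider differences belonged to neighbors on chromosome II, where runs of neighbors hold 4, 7 and 8 of the 44 members. Others, such as those of *gst-33*, *gst-42* and *gsto-1*, lay on other chromosomes. The run of 9 genes *gst-26*, *gst-27*, *gst-28*, *gst-29*, *gst-39*, *gst-31*, *gst-32*, *gst-34* and *gst-35* has no more than 5 other genes between consecutive members, and 8 of them were measured. Its first 4 genes were lower in *ets-4(uz1)* than in *ets-4(ok165)* worms in all 3 array numbers, with mean differences of −0.49 for *gst-26*, −0.62 for *gst-27*, −0.99 for *gst-28* and −0.74 for *gst-29*. The other 4 measured genes of the run did not share this, and their mean differences lay between −0.24 for *gst-32* and 0.30 for *gst-35*. The run's share, 4 of 8, was near the 43.2% of all members that were lower in all 3 array numbers. *gst-6*, at the head of the *gst-6* to *gst-9* run, had ratios of −0.49, −0.96 and −0.23 in *ets-4(uz1)* worms and of 0.86, −0.33 and 0.33 in *ets-4(ok165)* worms, a difference of −0.85 (adjusted p = 0.735 from limma, 0.178 with the block), while its neighbors *gst-7* and *gst-8* differed between the strains by 0.08 and 0.05.

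The 22 members not described with full values (*gst-2*, *gst-3*, *gst-6*, *gst-11*, *gst-15*, *gst-16*, *gst-19*, *gst-21*, *gst-22*, *gst-23*, *gst-26*, *gst-27*, *gst-30*, *gst-32*, *gst-34*, *gst-35*, *gst-36*, *gst-38*, *gst-39*, *gst-40*, *gsto-2* and *gsto-3*, of which *gst-3*, *gst-6* and *gsto-3* are also given array by array) had mean log2 ratios between −0.56 and 0.49 in *ets-4(uz1)* worms and between −0.34 and 0.49 in *ets-4(ok165)* worms. Their lowest adjusted p was 0.239 in *ets-4(uz1)* worms, for *gst-3*, and 0.649 in *ets-4(ok165)* worms, both from limma. *gst-3* was above wild type on all 6 arrays, with ratios of 0.26, 0.44 and 0.42 in *ets-4(uz1)* worms and of 0.34, 0.42 and 0.04 in *ets-4(ok165)* worms. Wild-type signal was measured on fewer than 3 arrays of a strain for *gst-2*, *gst-19*, *gst-30* and *gst-32* as well as for *gst-41* and *gst-44*, and their ratios are less certain.

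The rest of the glutathione pathway also held no gene that passed limma in any of the 3 comparisons. Of 15 measured genes of glutathione synthesis, recycling and breakdown the median log2 ratio was −0.11 in *ets-4(uz1)* worms and 0.07 in *ets-4(ok165)* worms. With the block, 3 of the 15 passed in *ets-4(uz1)* worms, a share near the 15.5% of all genes: *cth-2*, a cystathionine gamma-lyase gene (−0.46 ± 0.21, adjusted p = 0.0494), and *glrx-10*, a glutaredoxin gene (−0.76 ± 0.37, adjusted p = 0.0270), were lower, and *T03D8.6*, a gamma-glutamyltransferase-like gene, was higher (0.82 ± 0.35, adjusted p = 0.0458). *gcs-1*, which encodes the enzyme that starts glutathione synthesis and is a SKN-1 target, had ratios of 0.96, −0.59 and −0.22 in *ets-4(uz1)* worms and of 1.09, −0.46 and −0.16 in *ets-4(ok165)* worms. Its values again differed more by array number than by strain.

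Of the 7 measured glutathione peroxidase genes, whose products reduce lipid peroxides, 4 passed with the block in *ets-4(uz1)* worms, where 15.5% of all genes passed. *gpx-1* (−1.01 ± 0.52, adjusted p = 0.0132 with the block) and *gpx-7* (−0.89 ± 0.61, adjusted p = 0.0155) were lower, and *gpx-3* was higher (0.72 ± 0.44, adjusted p = 0.0262). The fourth, *gpx-2* (adjusted p = 0.0399 with the block, 0.409 from limma without it), had ratios of −1.63, −0.80 and 0.43, so that array 3 lay above wild type and the SD of 1.04 was larger than the mean of −0.67. Without the block none passed, and the lowest of these adjusted p-values was 0.116 for *gpx-1*. Among the 8 MRP-family exporters of glutathione conjugates, only *mrp-2* passed with the block in *ets-4(uz1)* worms (0.64 ± 0.23, adjusted p = 0.0392), and *mrp-8* had the highest *ets-4(ok165)* value, with ratios of 0.59, 1.65 and 1.19 (adjusted p = 0.287 from limma, 0.0714 with the block).

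The 13 regulators around SKN-1 held no gene that passed in any comparison, with or without the block. Their median log2 ratio was 0.04 in *ets-4(uz1)* worms and −0.07 in *ets-4(ok165)* worms. *skn-1* had ratios of 1.21, 0.24 and −0.74 in *ets-4(uz1)* worms and of 0.91, 0.03 and 0.20 in *ets-4(ok165)* worms, and *wdr-23*, whose product directs SKN-1 to degradation, had means of 0.08 ± 0.41 in *ets-4(uz1)* worms and −0.16 ± 0.27 in *ets-4(ok165)* worms. Of 14 other SKN-1-responsive detoxification genes, 4 passed with the block in *ets-4(uz1)* worms, against 15.5% of all genes: *ugt-13* and *F56D5.3* were higher, and *C35B1.5* and *pgp-5* were lower. Of the 5 measured cadmium-responsive *cdr* genes, *cdr-7* (0.69 ± 0.56) was higher and *cdr-6* (−0.80 ± 0.38) lower with the block in *ets-4(uz1)* worms, against the same 15.5% of all genes.

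Whole larvae were used, so that fewer cells of a type and less RNA per cell cannot be told apart. Marker genes of tissues also lay away from 0. The 14 measured of 15 intestine markers had a median log2 ratio of −0.40 in *ets-4(uz1)* worms (0 higher and 0 lower by limma, 3 lower with the block, where 8.32% of all genes were) and of −0.03 in *ets-4(ok165)* worms, a median difference of −0.44 between the strains. Their summed signal on arrays 1, 2 and 3 was 1424, 1356 and 1012 kilounits in *ets-4(uz1)* worms, against 1617, 2644 and 1324 kilounits in wild type on the same arrays. It was 1145, 1502 and 1112 kilounits in *ets-4(ok165)* worms, against 1267, 2202 and 1077 kilounits in wild type. A kilounit is 1000 units of processed signal, which was not scaled between arrays. None of the 14 was undetected. The 13 hypodermis and seam markers had medians of 0.54 in *ets-4(uz1)* worms and 0.12 in *ets-4(ok165)* worms. In *ets-4(uz1)* worms 2 passed limma, both higher, where 2.2% of all genes passed as higher, and in *ets-4(ok165)* worms 0 did. Their summed signals were 79.5 to 155 kilounits in *ets-4(uz1)* worms against 39.8 to 62.7 kilounits in wild type. They were 36.9 to 92.4 kilounits in *ets-4(ok165)* worms against 35.96 to 48.9 kilounits in wild type.

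The 14 measured genes of the late L4 molting cycle had medians of 0.89 in *ets-4(uz1)* worms and of 0.29 in *ets-4(ok165)* worms. In *ets-4(uz1)* worms 4 of them passed limma, all higher, where 2.2% of all genes passed as higher, and in *ets-4(ok165)* worms 0 did. Their summed signal on arrays 1, 2 and 3 was 352, 363 and 241 kilounits in *ets-4(uz1)* worms, against 182, 221 and 116 kilounits in wild type. It was 214, 308 and 108 kilounits in *ets-4(ok165)* worms, against 151, 195 and 108 kilounits in wild type. The median differences between the strains were −0.89 for 11 pharynx markers, 0.85 for 12 germ line markers, 0.34 for 9 body wall muscle markers and −0.19 for 9 neuron markers, and no marker on any of the lists passed that comparison. The part of tissue makeup or of the exact larval stage in the GST values was not tested.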

How the data were processed

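The members, the gene lists and the tests were chosen with earlier results of these data known. The deposited intensity values are the background-subtracted, dye-normalized signals of each spot in Cy3 and Cy5, and the authors' log10 ratios, Cy5 (mutant) over Cy3 (wild type), were lowess-normalized per array, both in Agilent Feature Extraction (8.5.1.1 for arrays 1 and 9.1.3.1 for arrays 2 and 3, per the file headers). The deposited log2 ratios of the series table are the same ratios per probe. The log10 ratios were converted to log2, without control spots and flagged outliers, and each gene was read from the brightest of its kept probes. Sequence names were matched to gene symbols and neighbors through the RefSeq annotation. Of 18876 genes on the arrays, 18124 matched. The genome build of the probe positions is not given in the sources used here, so no coordinates are printed. No sequences were used here.

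limma (3.58.1, R 4.3.3) estimated 1 mean per strain from all 6 arrays and tested both means and their difference against 0, and adjusted p-values by Benjamini-Hochberg over all 14767 genes, with 4 residual and 3.19 prior degrees of freedom. The methods call the arrays independent repeats, and nothing in the labels says how far the worm cultures were separate, so p-values measure the spread between these arrays. An adjusted p under 0.05 counted as a call. Samples of the same array number deviated together from their strain's mean (r = 0.513, 0.686 and 0.292 for arrays 1, 2 and 3 over 14588 genes), so the array number was taken to pair the strains, and the blocked value is given where it changed a call or a count. Rank Products used 100 permutations and a probability of false prediction under 0.1. Full values are given for members past an adjusted p of 0.05 with or without the block, for the 8 with the largest absolute mean in each strain and, by known role, for *gst-1*, *gst-4*, *gst-5*, *gst-7*, *gst-10*, *gst-24*, *gst-42*, *gsto-1*, *gstk-1* and *gstk-2*. *gst-6* and *gsto-3* were added after their values were seen. Alternatives changed the background correction, the signal filter, flagged or zero spots, the centering, the choice of probe, the blocks and the arrays included.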

Additional observations from a re-analysis of the deposited data

Results flagged for a closer look

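*gsto-3*, an omega-class gene, was below wild type on all 3 *ets-4(uz1)* arrays and above it on all 3 *ets-4(ok165)* arrays, which is why it is listed here. The difference of its log2 ratios, *ets-4(uz1)* minus *ets-4(ok165)*, was −0.423, with an adjusted p of 0.799 from limma and of 0.284 with the array number as a block, so it did not pass the test of the difference. The single arrays lay between −0.30 and −0.08 in *ets-4(uz1)* worms and between 0.15 and 0.38 in *ets-4(ok165)* worms. Its dimmer probe was also lower in *ets-4(uz1)* worms in all 3 array numbers, with a mean of 0.26 in *ets-4(uz1)* worms and of 0.87 in *ets-4(ok165)* worms, but its wild-type signal was well above background on 1 of 6 arrays, so its position against wild type is uncertain. On that probe the strains overlapped, with ratios of 0.77, 0.15 and −0.13 in *ets-4(uz1)* worms and of 1.87, 0.39 and 0.34 in *ets-4(ok165)* worms.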

How the results depend on the processing

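The count of GST genes past the test stayed at 0 in all 3 comparisons under every alternative run except with 2 kinds of block in *ets-4(uz1)* worms against wild type, where the array number as a replicate block gave 9 and the scan day as a fixed block gave 2 (*gst-7* and *gst-8*). The array number block changed no member's call for *ets-4(ok165)* or for the difference between the strains. Leaving out any 1 array gave 0 members throughout. Fits in which no gene on the arrays passed say nothing about stability. These were the slide as a fixed block in all 3 comparisons, the scan day as a fixed block for *ets-4(ok165)* and for the difference, and the difference without array 1 or 3 of *ets-4(uz1)* or array 3 of *ets-4(ok165)*. Without array 3 of *ets-4(ok165)* that strain had 1 call over all genes. Over all genes, calls in *ets-4(uz1)* worms numbered 522 and ranged from 60 to 594 when 1 array was left out. They were 2292 with the array number block and 827 with the scan day as a fixed block. In *ets-4(ok165)* worms the number was 14, and 49 with the array number block. For the difference between the strains it was 24, against 92 with that block and 554 with the scan day as a random block.

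Of the 704 values of the 22 fully described members in the 2 strains under alternatives, 673 kept their direction and their side of the threshold, 11 gained a call and 20 changed sign, none of them a called value. With the slide as a fixed block the log2 ratio was −0.018 for *gst-5* and −0.14 for *gst-41* in *ets-4(uz1)* worms, and 0.016 for *gst-33*, 0.034 for *gst-43* and 0.37 for *gsto-1* in *ets-4(ok165)* worms. With the scan day as a fixed or random block it was 0.022 and 0.014 for *gst-29* and −0.015 and −0.0039 for *gstk-2* in *ets-4(ok165)* worms. Leaving out 1 array at a time, *ets-4(uz1)* values ran from −0.49 to 0.12 for *gst-28*, from −0.40 to 0.053 for *gst-42* and from −0.26 to 0.23 for *gstk-1*, each turning positive without array 2. The *ets-4(ok165)* values ran from −0.44 to 0.053 for *gst-1*, from −1.09 to 0.012 for *gst-4*, from −0.36 to 0.43 for *gst-29*, from −0.49 to 0.11 for *gst-33*, from −0.15 to 0.019 for *gst-43* and from −0.43 to 0.26 for *gsto-1*, all turning positive without array 2. They ran from −0.0061 to 0.84 for *gst-8*, negative without array 1, and from −0.039 to 0.095 for *gstk-2*, negative without array 3. The cause of these changes was not tested. Signal over background limits *gst-2*, *gst-19*, *gst-30*, *gst-32*, *gst-41* and *gst-44*.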
